A study of Homo sapiens with 18 samples.

Results

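The last stretch of the long arm of chromosome 1 (1q) was examined in ATAC-seq data from 6 human ovarian cancer cell lines. ATAC-seq counts the DNA fragments that the transposase Tn5 releases from open chromatin. The segment holds every window of the deposited hg19 table from chr1:215130600 to the last one of the chromosome, which ends at chr1:249202000, in all 1104 of 89428 windows (1.23%). It was chosen by measured values, because its windows were lower in PEO4 than in PEO1, so the values of that pair are given as a description with no test. A2780, PEA1 and PEO1 are labelled sensitive to platinum, and CP70, PEA2 and PEO4 are their resistant counterparts, which gives 3 pairs. CP70 was derived from A2780 in culture, and each of the other pairs comes from 1 patient, sampled before and after resistance appeared in the clinic. All were grown untreated in RPMI-1640 medium with serum, with 3 libraries per line. Each condition is therefore 1 cell line, and nothing in the labels says that the replicates were separate cultures, so the spread between libraries may be technical.

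Platinum drugs bind DNA, and resistance in ovarian cancer has been tied to repair of that damage and to altered chromatin. In cancer lines whole chromosome arms can also be gained or lost, and a read count per window follows both the number of DNA copies and how open each copy is, which cannot be told apart from these reads. The segment runs to the telomere and holds genes for DNA repair (PARP1, EXO1), for growth signals (TGFB2) and for metabolism (FH), and close to its end a cluster of olfactory receptor genes, which encode odorant receptors of the nose.

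Of the 1104 windows, 183 were promoter windows, with their centre from 1 kb upstream to 100 bp downstream of a protein-coding start, 722 were distal, over 2.5 kb from every such start, and 199 lay in between. By position 439 windows (39.8%) were intronic, 424 (38.4%) intergenic and 58 (5.25%) exonic, and the rest were promoters. The remainder of 1q held 2919 windows, 561 of them promoter and 1790 distal, and served as the reference. Promoter windows of the segment had a median GC content of 58.6%, against 55.3% in the rest of 1q, and distal windows 46% against 47.2%. The annotation has 232 protein-coding genes here, of which 143 had a promoter window. The 45 olfactory receptor genes span 1233 kb, with only 20 windows among them.

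The sequences below, read from GRCh37, belong to promoters and windows named in the results. The 250 bases upstream of PGBD5 (minus strand, chr1:230562079-230562328) and COG2 (plus strand, chr1:230777977-230778226) are given first. Promoter windows of these genes flank the division of the PEO pair found among promoter windows alone. Among all windows and among distal windows the division lay closer to the telomere, as described below. The PLD5 promoter (minus strand, chr1:242688000-242688249) belongs to the promoter window with the largest difference in that pair. Capitals mark the letters GGGCGG (GC box), CCAAT, TGACGTCA (CRE), TGANTCA (AP-1), GGAATG (TEAD) and GGTTCGA (the core of box B of tRNA genes) on either strand, the last of them added after the sequences were seen.
PGBD5 promoter: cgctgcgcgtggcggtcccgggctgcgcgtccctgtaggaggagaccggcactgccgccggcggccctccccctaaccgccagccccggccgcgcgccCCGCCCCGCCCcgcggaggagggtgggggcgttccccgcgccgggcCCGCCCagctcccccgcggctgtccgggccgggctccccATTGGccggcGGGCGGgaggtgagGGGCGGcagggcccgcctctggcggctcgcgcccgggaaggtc
COG2 promoter: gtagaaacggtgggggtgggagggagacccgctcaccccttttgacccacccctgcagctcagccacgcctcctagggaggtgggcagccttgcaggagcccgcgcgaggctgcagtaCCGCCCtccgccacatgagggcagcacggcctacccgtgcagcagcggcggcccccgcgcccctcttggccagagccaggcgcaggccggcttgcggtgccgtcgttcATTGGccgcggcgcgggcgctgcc
PLD5 promoter: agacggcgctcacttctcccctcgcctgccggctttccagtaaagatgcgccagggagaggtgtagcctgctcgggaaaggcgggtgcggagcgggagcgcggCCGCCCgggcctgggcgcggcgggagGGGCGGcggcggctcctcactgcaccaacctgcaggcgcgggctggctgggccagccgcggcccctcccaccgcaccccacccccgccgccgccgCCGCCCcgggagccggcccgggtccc

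The next sequences are the central 300 bases, plus strand, of the windows with the largest difference between PEO4 and PEO1 in each direction (chr1:242792450-242792749 and chr1:246945950-246946249), of the window with the largest fall in CP70 (chr1:218222450-218222749), and of the distal window with the highest mean over the 18 libraries (chr1:249168050-249168349).
PEO4 lowest against PEO1: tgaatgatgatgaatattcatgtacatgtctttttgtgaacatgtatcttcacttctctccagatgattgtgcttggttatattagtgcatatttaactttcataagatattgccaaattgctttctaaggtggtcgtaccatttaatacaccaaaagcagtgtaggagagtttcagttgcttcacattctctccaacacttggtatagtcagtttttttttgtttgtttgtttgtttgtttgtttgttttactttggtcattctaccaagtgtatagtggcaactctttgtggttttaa
PEO4 highest against PEO1: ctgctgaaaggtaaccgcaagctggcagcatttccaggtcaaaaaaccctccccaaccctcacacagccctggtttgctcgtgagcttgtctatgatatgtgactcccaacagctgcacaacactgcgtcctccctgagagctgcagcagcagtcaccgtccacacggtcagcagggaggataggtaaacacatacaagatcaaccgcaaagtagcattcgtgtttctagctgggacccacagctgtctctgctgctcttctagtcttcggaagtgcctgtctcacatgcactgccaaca
Largest fall in CP70: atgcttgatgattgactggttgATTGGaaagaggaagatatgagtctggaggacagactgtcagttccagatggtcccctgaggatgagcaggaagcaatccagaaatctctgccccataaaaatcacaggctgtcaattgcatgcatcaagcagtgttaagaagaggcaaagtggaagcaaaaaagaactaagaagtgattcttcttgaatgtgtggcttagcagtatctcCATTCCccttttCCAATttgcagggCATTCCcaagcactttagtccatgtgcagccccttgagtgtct
Highest distal window: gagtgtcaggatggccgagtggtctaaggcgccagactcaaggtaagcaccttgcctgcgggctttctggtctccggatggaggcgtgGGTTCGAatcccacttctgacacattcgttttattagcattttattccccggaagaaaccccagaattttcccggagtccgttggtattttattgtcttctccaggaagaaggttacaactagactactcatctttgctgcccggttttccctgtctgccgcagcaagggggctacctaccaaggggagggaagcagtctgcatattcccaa

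The PGBD5 promoter held 5 GC boxes and 1 CCAAT box, and the COG2 promoter 1 of each. The PLD5 promoter held 3 GC boxes. Upstream of the 143 genes with a promoter window in the segment, 73.4% of the 250-base sequences held a GC box, against 54.5% of the 2060 starts of chromosome 1, and 35% against 35.6% held CCAAT. CRE letters were found in 2.1% against 1.75%, AP-1 letters in 4.2% against 6.65%, TEAD letters in 10.5% against 10.3% and box B letters in 2.1% against 0.874%. The 2060 starts were not selected for signal, unlike the 143, so the shares differ in that respect too. In the central 300 bases of distal windows the shares were 10.5% (GC box), 33.8% (CCAAT), 0.277% (CRE), 18.4% (AP-1), 17.3% (TEAD) and 0.277% (box B) in the segment, against 11.2%, 32%, 0.279%, 17.7%, 20% and 0.726% in the rest of 1q, in the same order. The highest distal window carried the only box B match of the 7 sequences printed, and neither PEO4 window held any of the 6 motifs. The PGBD5 promoter shares 92 bases and the CP70 window 114 bases with an annotated exon of a transcript not typed as protein-coding. None of the 7 overlaps a protein-coding exon.

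Library totals ran from 8963079 reads in PEO1 to 60435027 in A2780. The share of reads that fell in the table was lower in the A2780 pair (9.26% ± 0.832 for A2780, 13.1% ± 2.16 for CP70) than in the PEA pair (15.3% ± 2.12 for PEA1, 18.9% ± 1.82 for PEA2) and highest in the PEO pair (39.9% ± 0.949 for PEO1, 34.4% ± 1.51 for PEO4, SD, n = 3). It moved with the level of most windows, and its part in the results was not tested. FPKM, the reads of a window per kilobase scaled to the library total, was therefore also read within each library. All 8 start windows of ovarian and epithelial markers (PAX8, WT1, SOX17, MECOM, EPCAM, KRT7, KRT8, KRT18) were in the table, and none of the 6 of leukocyte, endothelial, smooth muscle or fibroblast markers was analysed here. PAX8, which marks Müllerian epithelium, had a mean of 0.61 FPKM in A2780 and 7.9 in PEO1. Of the 8, SOX17 alone had a lower mean in PEO1 (0.721) than in A2780 (0.896). Promoter windows of other chromosomes also had a higher mean in PEO1 (8.12 FPKM) than in A2780 (1.98).

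The 6 lines were first compared by a 1q end index, the log2 of the mean FPKM over the segment divided by the mean over the rest of 1q, taken within a library and within a class of window. The promoter index was 0.49, 0.64 and 0.59 in the A2780 libraries and -0.17, -0.18 and -0.21 in the CP70 libraries. It was 0.16, 0.17 and 0.11 in PEA1 and 0.37, 0.46 and 0.40 in PEA2. In PEO1 it was 0.19, 0.21 and 0.21, and in PEO4 -0.47, -0.46 and -0.49. Libraries of a line lay close together, CP70 and PEO4 were the lines below 0, and PEO4 was the lowest. For distal windows the order differed: CP70 was lowest at -0.74 ± 0.00421, followed by PEO4 at -0.56 ± 0.0228, while A2780 (0.10 ± 0.0572), PEA1 (0.09 ± 0.0335) and PEO1 (0.11 ± 0.0292) overlapped and PEA2 stood highest at 0.29 ± 0.0345 (SD, n = 3).

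**Figure D1:**
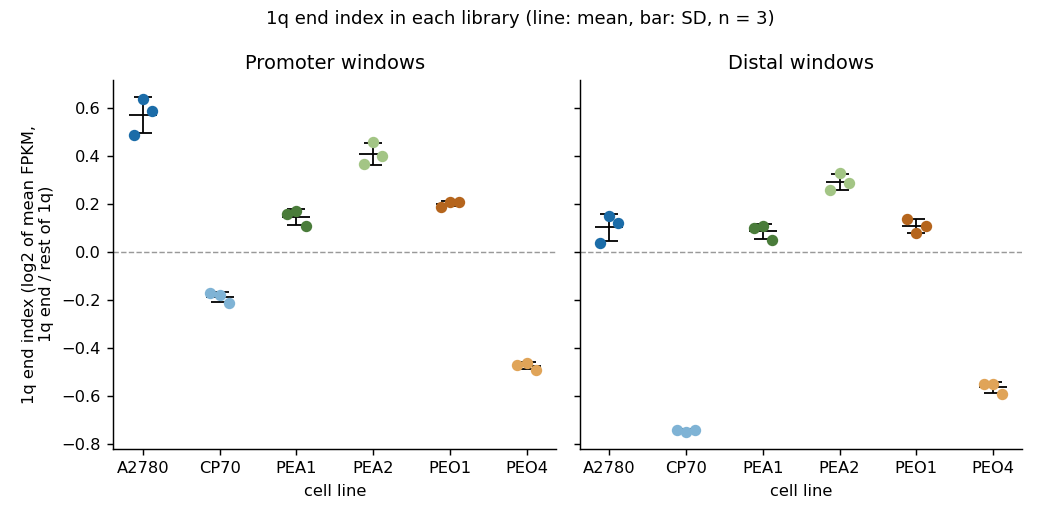
The 1q end index (log2 of mean FPKM in the 1q end over the rest of 1q) of each library in the 6 lines, for promoter windows (left) and distal windows (right); points are libraries, horizontal marks the mean and bars the SD (n = 3). CP70 and PEO4 lie below 0 in both classes, from -0.21 to -0.17 and -0.49 to -0.46 for promoters.

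CP70 had a lower 1q end index than A2780 in promoter, distal and all windows. The rule did not use this pair. The mean FPKM of promoters in the segment itself overlapped, at 3.94 ± 0.613 in A2780 and 3.65 ± 0.952 in CP70. Promoters in the rest of 1q had 2.64 ± 0.337 and 4.14 ± 1.04 (SD, n = 3). The promoter index differed by -0.76 ± 0.0435 (SE), a ratio of 0.59, and the distal index by -0.85 ± 0.0331, a ratio of 0.556. Over all windows the difference was -0.79 ± 0.046. The 3 CP70 libraries lay below the 3 A2780 libraries each time, and the exact two-sided permutation test gave p = 0.1, the smallest that 3 against 3 libraries allow. With other chromosomes in place of the rest of 1q the differences were -0.72 (promoter), -0.84 (distal) and -0.77 (all). The promoter windows differed less than the distal ones by 0.09 ± 0.0142 on the log2 scale, without overlap between the lines (exact permutation p = 0.1). This gap depended on the measure and on the start of the segment. With the median over windows both classes differed by -0.71, and with the segment from 220 Mb by -0.74 (promoter) and -0.76 (distal).

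PEA2 had the opposite sign. Its index exceeded that of PEA1 by 0.27 ± 0.0321 for promoters, 0.20 ± 0.0278 for distal windows and 0.27 ± 0.0277 over all windows (SE, exact permutation p = 0.1 each, libraries not overlapping). The sign rested on the reference: against other chromosomes the differences were 0.03, -0.04 and -0.00. The rest of 1q was itself lower in PEA2, with a median relative change of -0.26 over its 2919 windows, where relative means that the median of the same class of window on other chromosomes was subtracted from the log2 fold change. In the segment that median was 0.05.

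PEO4 lay below PEO1 by 0.67 in the promoter index and 0.67 in the distal one (ratios of 0.626 and 0.628), and by larger amounts against other chromosomes (differences of -0.87 and -0.92). The segment was selected on this contrast. Its reference was also lower in places: from 187.5 to 200 Mb the relative medians of 2.5 Mb bins were between -1.36 and -1.23.

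The difference of PEO4 from PEO1 was not even along the segment. A single least-squares division of the relative values, made after the profile was seen, fell between the windows at chr1:231377400 and chr1:231472800, near GNPAT and EXOC8. The 480 windows before it, called the inner part here, had a median relative difference of -0.16 (quartiles -0.61 and 0.24), and the 624 after it, the outer part, -1.30 (quartiles -1.75 and -0.93). All 86 promoters of the outer part were below the median of other chromosomes, against 71 of 97 in the inner part. The division was placed to part these same values, so such contrasts between the parts are a description. Among promoter windows alone the division fell between PGBD5 and COG2, which are 214 kb apart, with medians of -0.19 before and -1.22 after. Among distal windows alone it fell near KCNK1, at chr1:233743500 and chr1:233762400, with medians of -0.15 and -1.35.

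**Figure D2:**
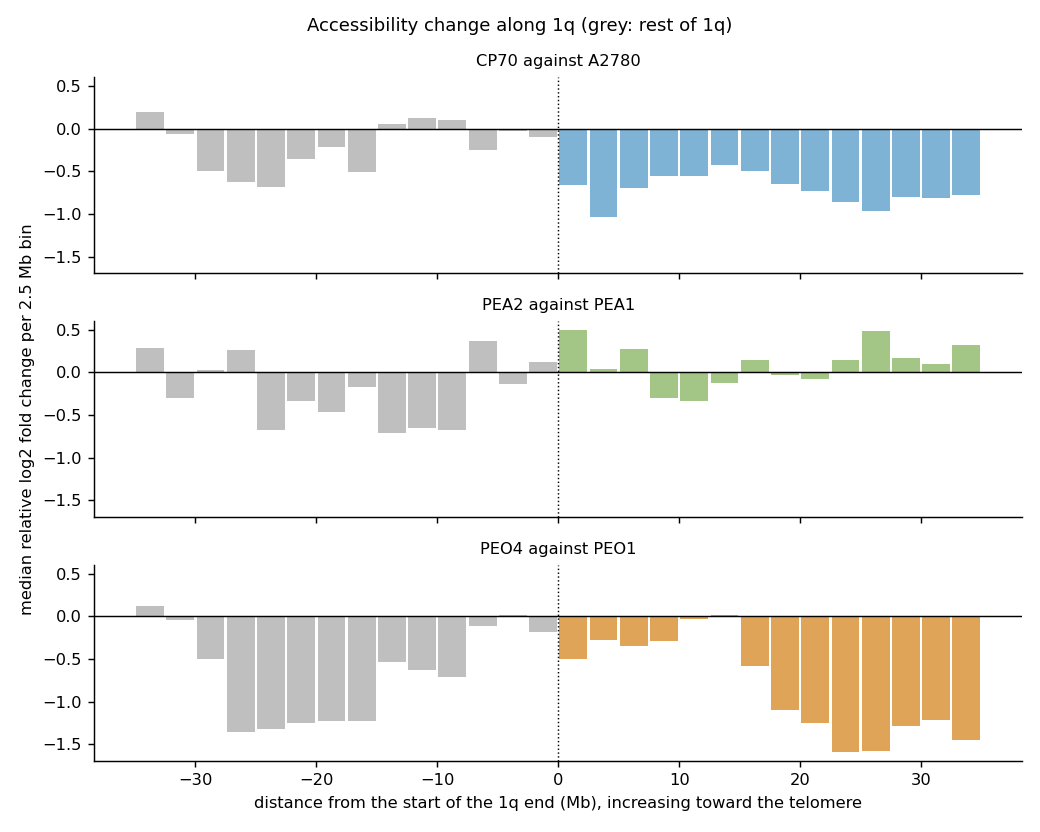
Median relative log2 fold change of all windows per 2.5 Mb bin along 1q, against the distance from the start of the segment, for CP70 against A2780 (top), PEA2 against PEA1 (middle) and PEO4 against PEO1 (bottom); grey bars are the rest of 1q. CP70 is below 0 in every bin of the segment, from -1.03 to -0.42, while PEO4 is near 0 (-0.03 and 0.01) at 10 to 15 Mb and between -1.59 and -1.10 beyond 17.5 Mb.

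PGBD5, which encodes a protein derived from a piggyBac transposase, had 4.45, 6.11 and 4.9 FPKM in PEO1 and 5.76, 8.16 and 5.13 in PEO4. The lines overlapped there. COG2, a subunit of the Golgi tethering complex, had 11, 12.4 and 11 FPKM in PEO1 and 4.48, 4.8 and 4.78 in PEO4, a log2 fold change of -1.27, with PEO4 well below. In the other 4 lines COG2 had means of 4.42 to 5.95 FPKM, close to PEO4, and PGBD5 4.08 to 5.32.

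Each line was then set against the lines of other pairs, to show on which side of a pair the levels moved. The comparison was added after the profile was seen and is a description, and its values share those lines. PEO1, compared window by window with the mean of A2780, CP70, PEA1 and PEA2, had a median of -0.91 in the inner part and 0.24 in the outer part, and its own division fell at the same place, between chr1:231378400 and chr1:231472800. PEO4 had medians of -1.09 and -1.11. The level of PEO4 was thus nearly the same on both sides, and the level of PEO1 was not. For promoters the medians were -0.90 and 0.11 in PEO1 and -1.04 and -1.16 in PEO4, and for distal windows -1.0 and 0.28 in PEO1 and -1.18 and -1.08 in PEO4.

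**Figure D3:**
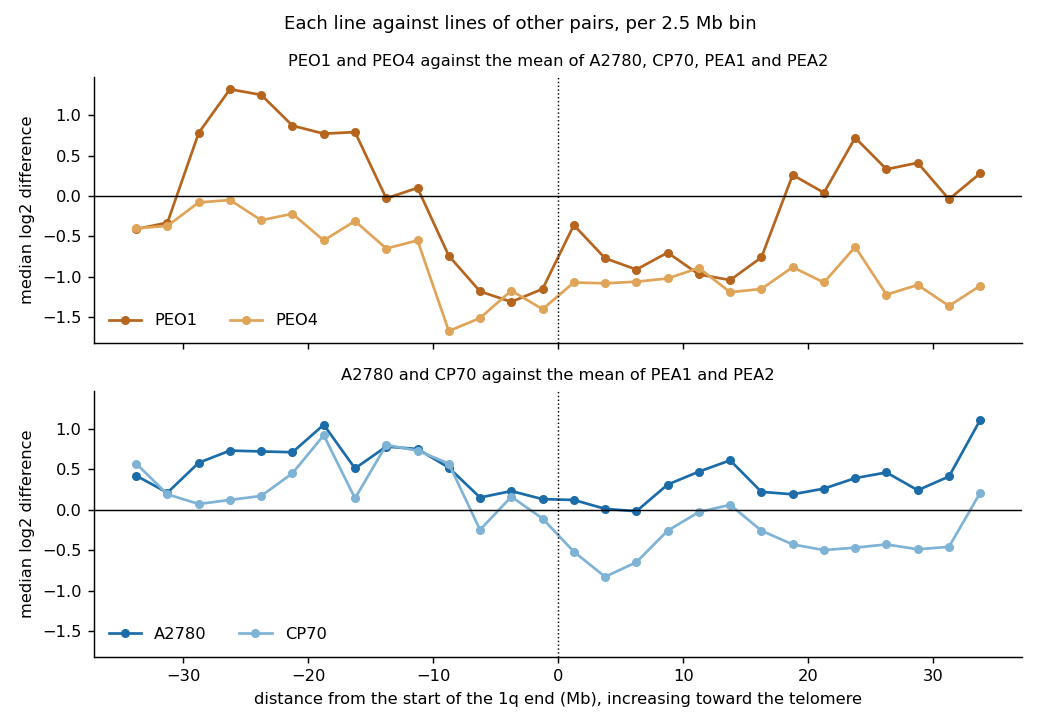
Median log2 difference per 2.5 Mb bin between a line and lines of other pairs, centred on other chromosomes, against the distance from the start of the segment: PEO1 and PEO4 (top) against A2780, CP70, PEA1 and PEA2, and A2780 and CP70 (bottom) against PEA1 and PEA2. PEO1 goes from -0.76 at 15 to 17.5 Mb to 0.26 in the next bin, while PEO4 is -1.15 and -0.88 in the same bins.

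The outer part can also be set against the inner part within single libraries, with no other line as denominator. The division itself was placed on the PEO4 minus PEO1 differences. A gap between PEO1 and PEO4 is therefore partly fixed by that choice, and the values are a description. The mean FPKM of outer promoters over inner promoters, on the log2 scale, was 1.24, 1.19 and 1.17 in PEO1 and 0.25, 0.23 and 0.25 in PEO4. It was 0.31 ± 0.0465 in A2780, 0.16 ± 0.0428 in CP70, 0.16 ± 0.0486 in PEA1 and 0.30 ± 0.0443 in PEA2 (SD, n = 3), so PEO4 lay among the other 4 lines and PEO1 above them. For distal windows PEO1 had 0.90, 0.87 and 0.87 and PEO4 -0.27, -0.32 and -0.24, with means from -0.44 (CP70) to -0.18 (A2780, PEA2) in the other lines.

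Against other chromosomes, inner promoters were at 0.689 times the mean level in PEO1 and 0.559 times in PEO4, and at 1.14 times (CP70) to 1.78 times (A2780) in the other lines. Outer promoters were at 1.58 times in PEO1 and 0.662 times in PEO4. Both PEO lines were thus low in the inner part, and PEO4 alone among the 6 lines had outer promoters below 1. Outer distal windows were below 1 in CP70 too, at 0.818 times, against 0.524 times in PEO4. In the other lines they were at 1.12 times (PEA1) to 1.59 times (A2780). The low level of both PEO lines was not confined to the inner part. Against lines of other pairs, 2.5 Mb bins in the last 7.5 Mb before the segment had medians of -1.31 to -1.15 in PEO1. In PEO4 these bins had -1.51 to -1.17. Over the whole rest of 1q the medians were -0.40 in PEO1 and -0.55 in PEO4.

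**Figure D4:**
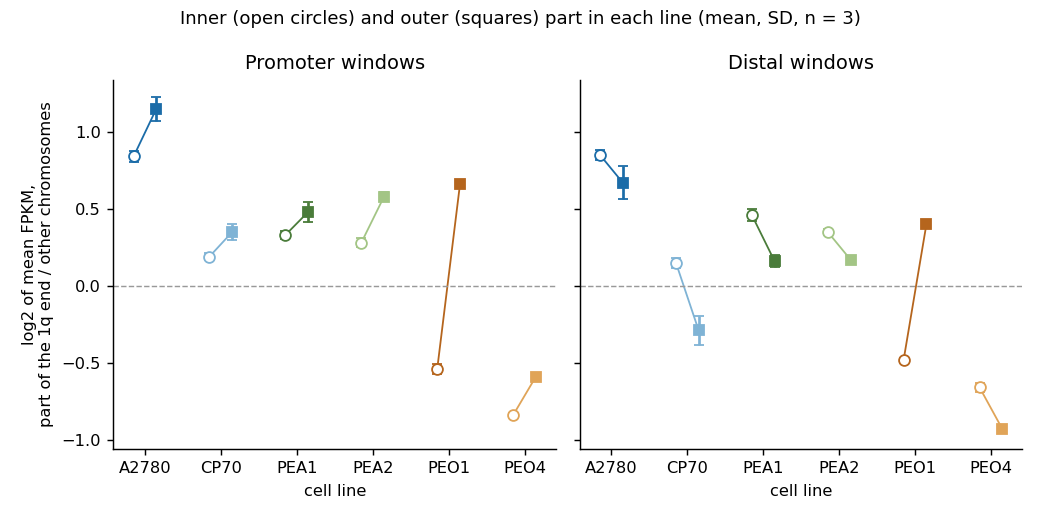
Log2 of the mean FPKM of the inner part (open circles) and outer part (squares) of the 1q end over that of other chromosomes, in each line, for promoter (left) and distal (right) windows; marks are means of 3 libraries and bars the SD. PEO1 goes from -0.54 to 0.66 for promoters, and PEO4 from -0.84 to -0.59.

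Relative to other chromosomes CP70 was below A2780 in every 2.5 Mb bin of the segment, and also in a stretch of the rest of 1q: from 185 to 200 Mb the relative medians of its 2.5 Mb bins were between -0.68 and -0.21, and from 200 Mb to the start of the segment between -0.25 and 0.12. In the first of these stretches PEO4 was below PEO1 too. Against lines of other pairs, the bins there had medians of 0.77 to 1.32 in PEO1 and -0.55 to -0.05 in PEO4. Against the mean of PEA1 and PEA2 they had 0.51 to 1.05 in A2780 and 0.07 to 0.92 in CP70. Searched from 7.5 Mb before the segment onward only, the division of the relative values in CP70 fell between chr1:214781500 and chr1:214846200, beyond the CENPF gene, both in all windows and in distal windows, with medians of -0.09 before and -0.68 after. In promoters it fell between chr1:214777000 and chr1:215255700, with medians of -0.11 and -0.68. In the segment 1066 of 1104 windows (96.6%) lay below the median of their class on other chromosomes, against 1412 of 2919 (48.4%) in the rest of 1q. The inner part had a median of -0.56 and the outer part -0.79. Against the mean of PEA1 and PEA2, CP70 had a median of -0.35 in the segment and 0.38 in the rest of 1q, and A2780 0.37 and 0.36.

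Tests of single windows were fitted over all windows of the table with limma on log2(FPKM + 0.1), keeping those with a mean above 1 FPKM in the pair. In CP70 485 members passed this filter, and 6 were lower and 0 higher at the study's rule of a log2 fold change beyond 2 and an adjusted p below 0.001, where 0.369% of all windows tested were lower and 0.428% higher. At an adjusted p below 0.05, 97 members (20%) fell and 9 (1.86%) rose, against 2.29% and 47.5% of all windows tested. After each library was centred on its median, 351 members (72.4%) fell and 2 (0.412%) rose, against 9.07% and 6.08%. The fit without the filter covers every member: 267 of 1104 (24.2%) fell and 6 (0.543%) rose, against 3.17% and 17.7% of the table. Members tested had a median log2 fold change of -0.16, windows of the rest of 1q 0.54 and all windows tested 0.59.

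The 6 windows called lower in CP70 lay together, in 206 kb of intergenic DNA from chr1:218222100 to chr1:218428300, upstream of RRP15 and of TGFB2. All 8 windows of the table in that stretch were tested and 6 were called, with a median log2 fold change of -2.48 over the 8 and mean levels of 2.85 FPKM in A2780 and 0.504 in CP70. The window at chr1:218222100, whose sequence is printed above, had 3.02, 3.85 and 2.08 FPKM in A2780 and 0.227, 0.18 and 0.0419 in CP70. CP70 held only 1 to 3 reads per library there, so that the fold change rests on counts near 0, and A2780 held 126 to 173. On the log2 scale the change was -3.67, with an SE of 0.348 (limma adjusted p = 4.21e-23). PEA1, PEA2, PEO1 and PEO4 had means of 0.3 to 0.6 FPKM at this window, below A2780.

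The window at chr1:218427300 had 2.37, 3.61 and 2.76 FPKM in A2780 and 0.606, 0.18 and 0.419 in CP70. The libraries of the lines did not overlap, and the change was -2.67 on the log2 scale, with an SE of 0.276 (limma adjusted p = 2.36e-19). The window at chr1:218373300 showed a change of -2.69 ± 0.314 (SE) on the same scale (limma adjusted p = 2.37e-15), from a mean of 2.35 FPKM in A2780 to 0.287 in CP70.

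In PEA2 919 members were tested. At the study's rule 8 were lower and 94 (10.2%) higher, against 1.42% and 11.2% of all windows tested, so the share of higher calls was near that of the table. At an adjusted p below 0.05, 103 (11.2%) fell and 391 (42.5%) rose, against 21.4% and 43%. With median centring the counts were 296 and 311 (32.2% and 33.8%), against 37.2% and 34.4%. The rises were mainly distal, as they were among all windows tested. Of the 94 called windows of the segment, 91 were distal and 1 was a promoter. Of the 7436 windows called higher over all windows tested, 6886 were distal and 226 were promoters.

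The largest rise in PEA2 was at chr1:247691700, in an exon, within GCSAML and the olfactory receptor gene OR2C3. It had 0.288, 0.343 and 0.815 FPKM in PEA1 and 7.25, 5.95 and 6.26 in PEA2, a rise of 3.6 on the log2 scale with an SE of 0.24 (limma adjusted p = 2.51e-48). PEO1 also had a high value there, with a mean of 11.1 FPKM, while PEO4 had 2.17, A2780 0.64 and CP70 0.28. The largest fall was in an intron of GNG4, a G protein gamma subunit, at chr1:235787400, where PEA1 had 3.91, 4.21 and 3.16 FPKM and PEA2 0.44, 0.231 and 0.532 (log2 fold change -2.99 ± 0.26, limma adjusted p = 7.4e-29). PEA1 alone was open there, with means of 0.229 to 0.816 FPKM in the other 5 lines.

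For PEO4 the same counts are a description, since the rule used this contrast. Of 917 members tested, 196 (21.4%) passed the study's rule as lower and 5 (0.545%) as higher, where the table had 5.78% and 2.72%. The outer part, set off by a division of these same differences, held 174 of the 196. At an adjusted p below 0.05 there were 720 (78.5%) lower and 28 (3.05%) higher, where the table had 45.8% and 21.9%. With median centring there were 625 (68.2%) and 74 (8.07%), where it had 31.3% and 35.4%.

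Of the 5 windows that differed most between PEO1 and PEO4, 3 lay in or near PLD5, which encodes a phospholipase D family member. The intergenic window at chr1:242792100, 105 kb from the PLD5 start, had 7.39, 5.32 and 5.68 FPKM in PEO1 and 0.174, 0.096 and 0.199 in PEO4, a log2 fold change of -4.61. PEO4 held 2 to 4 reads per library there. The PLD5 promoter window at chr1:242687700 had 11.4, 10.2 and 13.4 FPKM in PEO1 and 0.233, 0.432 and 0.598 in PEO4 (log2 fold change -4.55), while the other lines had means of 2.09 to 4.05. Here PEO4 was below all of the other 5 lines. An intronic window of PLD5 at chr1:242369100 differed by -4.06, with PEO1 at a mean of 9.6 FPKM and no other line above 0.676. The others were an intergenic window at chr1:243136800, 183 kb from the CEP170 start, where PEO1 had 2.33, 2.09 and 2.79 FPKM and PEO4 0, 0.144 and 0 (0 to 3 reads, log2 fold change -4.21), and an intronic window of RGS7 at chr1:240946200, with means of 3.76 and 0.136 FPKM (-4.04). RGS7 regulates G protein signalling, and PEA2 was also above PEA1 at its window, by 2.49 ± 0.275 (SE, limma adjusted p = 2.47e-18).

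Some windows went the other way. The intergenic window at chr1:246945600, 58.4 kb from SCCPDH, had 0, 0.262 and 0.446 FPKM in PEO1 (0 to 4 reads) and 3.37, 2.88 and 2.84 in PEO4, a log2 fold change of 3.53, although it lies in the outer part. An exonic window of WNT3A at chr1:228247200, a gene for a secreted Wnt ligand, had 1.92, 1.4 and 1.34 FPKM in PEO1 and 10.9, 12 and 10.9 in PEO4 (log2 fold change 2.80). PEA2 was also above PEA1 there, by 1.24 ± 0.228 (SE, limma adjusted p = 2.16e-07).

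At the border of the segment the last windows outside, at chr1:214846200 and chr1:214890300, had log2 fold changes of 1.20 and -1.74 in PEO4 against PEO1. The first windows inside, at chr1:215130600 and chr1:215163900, had -1.37 and -1.95. These values rest on few reads. The window at chr1:214846200 held 0 to 5 reads per library in PEO1 and 6 to 9 in PEO4, and the FPKM of the lines overlapped. The window at chr1:214890300 held 5 to 17 and 3 to 5. Of these border windows only chr1:215163900 had a mean above 1 FPKM in the pair.

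Among distal windows, the highest mean over the 18 libraries was at chr1:249167700, 14.9 kb from ZNF692 and close to the end of the chromosome. It had 31.5, 31.7 and 27.6 FPKM in PEO1 and 9.94, 10.4 and 10.5 in PEO4. CP70 had 17.3, 10.4 and 8.84 and A2780 12.5, 16.3 and 12.1, which overlapped. The next highest, at chr1:227975400 in the inner part, had means of 14.1 FPKM in PEO1 and 10.1 in PEO4, and 6.53 to 7.5 in the other lines. Over all members PEO1 had the highest mean of the 6 lines in 694 windows (62.9%), followed by PEA2 with 217 (19.7%). PEA1 came next with 83 (7.52%), then PEO4 with 55 (4.98%). For these lines the shares of all windows were 47% (PEO1), 16.4% (PEA2), 5.3% (PEA1) and 26.8% (PEO4). A2780 was highest in 40 members (3.62%), against 0.359% of all windows, and CP70 in 15 (1.36%), against 4.17%. Of the 722 distal windows, 79.2% had a mean above 1 FPKM in PEO1 and 43.9% in PEO4, against 76.9% and 68.3% of the distal windows of the whole table.

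The window that holds the start was examined for 32 of 34 listed genes, 20 in the inner and 12 in the outer part, while the starts of ZBTB18 and WNT3A were not analysed here. Of these start windows 25 were promoter windows as defined above, and 7 (WNT9A, EGLN1, DUSP10, RHOU, FH, TOMM20 and COX20) had their centre further downstream. The lists were chosen with earlier results of these data known. In CP70 31 of the 32 passed the filter, of which 2 fell (TGFB2 and RHOU) and 0 rose at an adjusted p below 0.05 by limma, and 26 fell and 0 rose with median centring. Of all promoter windows tested in CP70, 1.39% fell and 44.9% rose, and 8.06% and 5.58% with centring, while of the 172 promoter windows of the segment that were tested 11.6% fell and 1.74% rose, and 72.7% and 0.581% with centring. The median log2 fold change of the 32 was -0.15, and relative to windows of the same class on other chromosomes -0.69. In PEA2 6 of 32 fell and 1 rose, and 24 fell and 1 rose with centring, where of all promoter windows 33.1% fell and 20.2% rose, and 58.2% and 13.3% with centring, and of those of the segment 16% and 11.6%, and 56.4% and 6.08%. The counts of the listed genes are read against these shares, and no list is called different from the segment. In PEO4 the 12 genes of the outer part had log2 fold changes from -1.77 to -0.84 against PEO1 and the 20 of the inner part from -1.55 to 0.47.

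**Figure D5:**
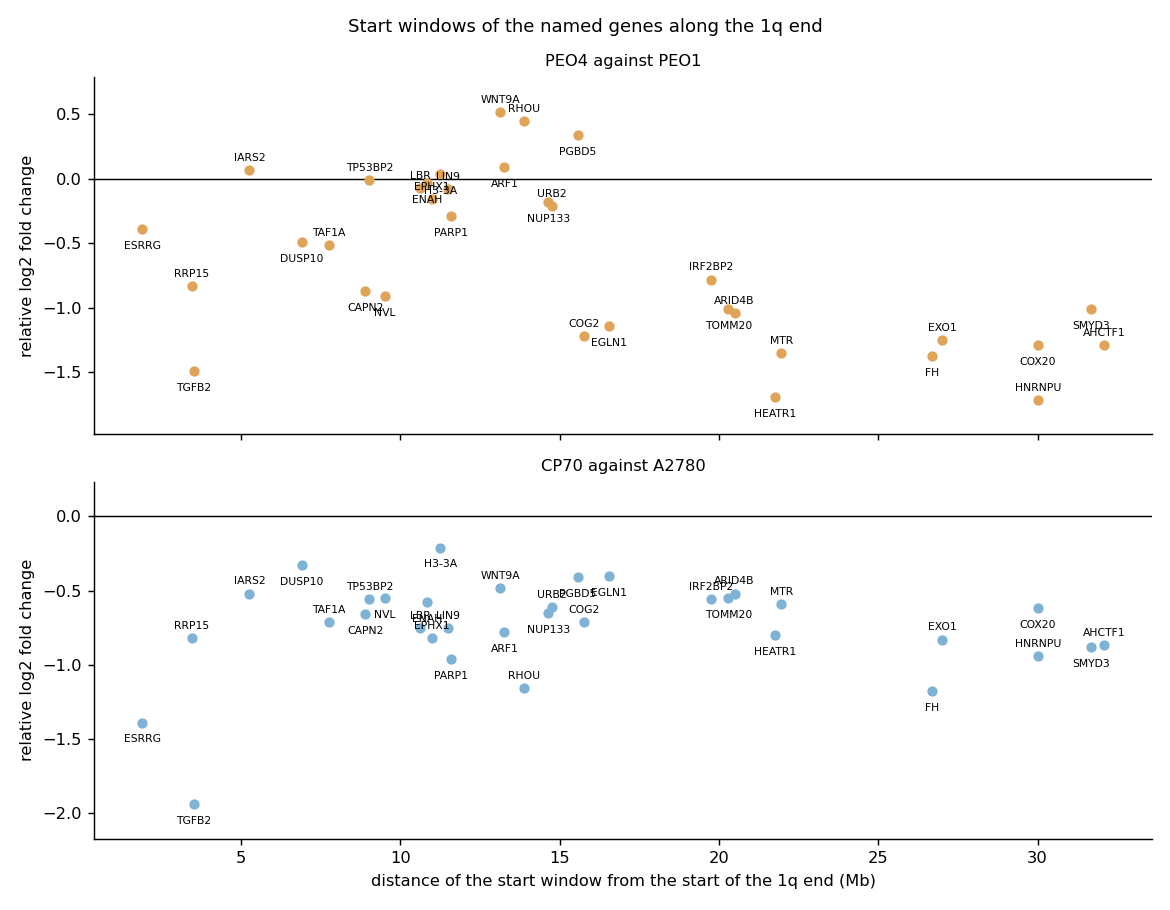
Relative log2 fold change of the start windows of the listed genes, with PGBD5 and COG2, against their distance from the start of the 1q end, for PEO4 against PEO1 (top) and CP70 against A2780 (bottom). Every gene from COG2 onward is at -0.78 or lower in PEO4, and all lie between -1.94 and -0.21 in CP70.

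Genes of signalling, the cytoskeleton and growth included the 2 that fell in CP70. TGFB2, a ligand of the TGF-beta receptors, had 2.65, 3.33 and 3.03 FPKM in A2780 and 1.36, 1.2 and 0.754 in CP70. Its promoter lies beyond the intergenic windows described above, CP70 was below A2780 in every library, and the change was -1.40 on the log2 scale, with an SE of 0.253 (limma adjusted p = 1.41e-06). TGFB2 was also lower in PEO4 (1.1, 1.54 and 1.84 FPKM) than in PEO1 (4.25, 4.97 and 4.24), although it lies in the inner part.

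RHOU, a small GTPase, fell in CP70 by 0.62 on the log2 scale (limma adjusted p = 0.0477) and in PEA2 by 0.73 (limma adjusted p = 0.0027), and had means of 2.13 FPKM in PEO1 and 2.76 in PEO4. Its call in CP70 was lost without any 1 of the A2780 libraries or without CP70 replicate 2 or 3, with a limma adjusted p of 0.0987 to 0.139. ESRRG, an orphan nuclear receptor, was the 1 listed gene that rose in PEA2, from 1.47, 1.65 and 1.29 FPKM in PEA1 to 4.45, 3.47 and 4.44 (log2 fold change 1.42 ± 0.231, limma adjusted p = 3.81e-09). ENAH, which promotes actin filament growth, fell in PEA2 by 0.89 (limma adjusted p = 0.000232).

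Genes of DNA repair and the nuclear envelope gave 0 of 6 calls in CP70 and 6 of 6 lower with median centring, where 72.7% of the promoter windows of the segment were lower. PARP1, which senses DNA breaks, had 3.87, 4.3 and 3.39 FPKM in A2780 and 3.41, 2.81 and 2.39 in CP70, with an overlap of the lines (log2 fold change -0.42 ± 0.284, limma adjusted p = 0.188, or 0.0296 without CP70 replicate 1). In the PEO pair it had 5.56, 7.5 and 6.35 against 4.48, 5.71 and 4.98, also overlapping. EXO1, an exonuclease of mismatch repair and end resection in the outer part, had 21.2, 20.8 and 17.4 FPKM in PEO1 and 8.14, 8.3 and 7.42 in PEO4, which did not overlap. LBR, an inner nuclear membrane protein, fell in PEA2 by 0.97 on the log2 scale (limma adjusted p = 4.98e-05), from a mean of 5.94 FPKM to 2.95.

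Genes of chromatin, transcription and RNA gave 0 of 7 calls in CP70, and 5 lower and 0 higher with centring, a share near the 72.7% of the segment. H3-3A, which encodes the histone variant H3.3, had a log2 fold change of 0.33 ± 0.316 in CP70 (limma adjusted p = 0.358), which turned to -0.25 with median centring, and fell in PEA2 by 0.76 (limma adjusted p = 0.00184). It lies in the inner part, with means of 10.1 FPKM in PEO1 and 9.9 in PEO4. HNRNPU, a nuclear RNA-binding protein in the outer part, had 16, 14.2 and 14.8 FPKM in PEO1 and 4.36, 4.32 and 4.33 in PEO4, the lowest log2 fold change of the listed genes (-1.77). IRF2BP2, a transcriptional co-repressor, fell in PEA2 by 0.80 (limma adjusted p = 0.000919).

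Genes of mitochondria, metabolism and ribosome biogenesis gave 0 of 10 calls in CP70 or PEA2 without centring, and 9 and 7 lower with it, where 72.7% and 56.4% of the promoter windows of the segment were lower. FH, the fumarase of the citric acid cycle, had 12, 17.8 and 12.4 FPKM in A2780 and 13.6, 7.96 and 6.41 in CP70, which overlapped (log2 fold change -0.64 ± 0.358, limma adjusted p = 0.115, or 0.00183 without CP70 replicate 1). In the PEO pair FH had 33.2, 37.3 and 29.1 against 12.3, 13.1 and 11.3. HEATR1, a factor of ribosomal RNA synthesis, had 16.1, 17.4 and 17.1 FPKM in PEO1 and 5.12, 4.51 and 5.23 in PEO4, and means of 4.5 to 5.76 in the other 4 lines. IARS2, the mitochondrial isoleucine tRNA ligase in the inner part, had means of 6.65 and 6.72 FPKM in PEO1 and PEO4.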

How the data were processed

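ATAC-seq libraries of 6 cell lines, 3 each, were grouped and numbered from their labels. Per the study's methods and processing notes, the authors removed duplicates with Picard, aligned reads to hg19 with Bowtie2, counted them in 1 kb windows and deposited FPKM values for all 18 libraries. Versions and a shift for Tn5 were not given in the sources used here. The FPKM that the authors deposited are RPM values divided by a constant window length. In every library 100% of values were whole multiples of 1 read, and totals came out whole when a window was taken as 1001 bp, so coordinates are given as deposited, counted from 1. Totals of 8963079 to 60435027 reads, with median reads per window of 15.3 to 43.3 by line, set the precision. Reads carry no molecular identifiers, so counting errors are lower limits.

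Windows were annotated with GENCODE 44 mapped to GRCh37. Each pair was tested with limma 3.58.1 (R 4.3.3, trend) on log2(FPKM + 0.1), which understates changes of low windows, for windows with a mean above 1 FPKM, with Benjamini-Hochberg adjustment over all windows tested. The limma fit of the CP70 comparison was also run on simulated reads, in which chosen windows were changed by known amounts. Those reads lacked the shift of the median window seen in this pair, so they say nothing about calls under that shift. The limma trend replaced the voom weights of the study, since FPKM are not counts, and edgeR 4.0.16 was run on the recovered reads as an alternative. Index differences were tested by exact permutation of libraries. The division of the segment and the comparison with lines of other pairs were added after the profile was seen. Members, gene lists and rules were chosen with earlier results of these data known: the genes named are those of the 4 lists, the 5 highest distal windows, the 5 largest differences in each direction in PEO4, the 3 largest calls in each direction in the other pairs, the windows at the border, and PGBD5, COG2 and other genes at the division. Besides ZBTB18 and WNT3A, 1 gene was taken off the lists and is not reported here.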

Additional observations from a re-analysis of the deposited data

Results flagged for a closer look

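The change of the 1q end index had opposite signs in different pairs, and every library of each line lay on its side. In promoter windows the CP70 minus A2780 difference was 1.03 log2 units below the PEA2 minus PEA1 difference (-1.03), and the PEO4 minus PEO1 difference was 0.94 below it (-0.94). In distal windows these values were -1.05 and -0.87. The differences between pairs were not tested, and those of the PEO pair use the contrast on which the segment was chosen. The PEA pair contributes to all of them through its reference: with other chromosomes in place of the rest of 1q its own differences were 0.03 and -0.04.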

How the results depend on the processing

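The index difference between CP70 and A2780 kept its sign under each alternative run, with exact permutation p at the smallest value the design allows, so p says nothing about stability here. The PEA2 index reversed with other chromosomes as reference, to -0.04 for distal and -0.00 for all windows. The PEO4 promoter index (-0.67) moved to -0.46 with the median over windows, -0.87 with other chromosomes and -0.70 with all basic transcripts. The distal one (-0.67) moved to -0.70, -0.92, -0.72 with the segment from 220 Mb, and -0.71 with every window outside promoters, and that over all windows (-0.71) to -0.66, -0.92 and -0.72.

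Counts of calls depended on the threshold and pseudocount. At a log2 fold change above 1 and adjusted p below 0.05 CP70 had 32 lower and 3 higher, PEA2 26 and 255, and PEO4 562 and 14. With a pseudocount of 1 CP70 had 0 lower, PEA2 0 and 2, and PEO4 26 and 1, and with a minimum mean of 5 FPKM CP70 had 0 lower, PEA2 0 and 0, and PEO4 25 and 1. Median centring left CP70 with 13 lower, PEA2 with 48 higher and PEO4 with 119 lower. Quantile normalization gave PEA2 14 lower and 29 higher and PEO4 125 lower, and edgeR gave CP70 1 higher. The cause of these shifts was not tested.

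Leaving out 1 library at a time gave CP70 4 to 7 lower and 0 to 1 higher, PEA2 6 to 9 and 73 to 104, and PEO4 177 to 203 and 3 to 5. The single higher call in CP70 came without CP70 replicate 2, and 3 higher in PEO4 without PEO4 replicate 2. Index differences then ranged from -0.80 to -0.73 (promoter), -0.88 to -0.82 (distal) and -0.83 to -0.76 (all) in CP70, from 0.24 to 0.28, 0.18 to 0.22 and 0.25 to 0.29 in PEA2, and from -0.68 to -0.67, -0.69 to -0.66 and -0.72 to -0.70 in PEO4. Same-numbered libraries did not deviate together (correlations of -0.41 to 0.04), so the numbers do not pair them, and with the replicate block CP70 had 6 lower and 0 higher, PEA2 8 and 94, and PEO4 196 and 5, as without it. At 0 to 3 reads per library a fold change rests on the added 0.1 FPKM. Of the genes tested by name, RHOU in CP70 lost its call without the filter (limma adjusted p = 0.0781), with the replicate block (0.0726), with a pseudocount of 1 (0.0521) and with edgeR (adjusted p = 0.0502). H3-3A in CP70 reversed from 0.33 to -0.25 with median centring and -0.28 with quantile normalization, and PARP1 and FH were then lower past the threshold. The calls of TGFB2 in CP70 and of LBR, H3-3A, IRF2BP2, ENAH, RHOU and ESRRG in PEA2 were kept in the 12 or 13 alternatives run for each.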
